A study of Mus musculus with 4 samples.

Results

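The genes described here are 32 mouse genes of axon guidance signals. Of these, 14 are Eph receptors (Epha1 to Epha8, Epha10, Ephb1 to Ephb4 and Ephb6) and 8 are ephrins (Efna1 to Efna5, Efnb1 to Efnb3). The others are the netrins Ntn1 and Ntn4, the netrin and RGM receptors Dcc, Neo1 and Unc5a to Unc5d, and the RGM ligands Rgma and Rgmb. All 32 genes are a list of gene names out of 22225 protein-coding gene symbols. The rule uses no measured value, but the list of these genes was drawn up with earlier results of these data known. A binding peak was assigned to one of them when its maximum lay nearer to a transcription start of that gene than to a start of any other protein-coding gene (GENCODE M1 on mm9). By this rule 9 of the 32 genes had a peak, and 12 of the 2454 nuclear peaks in the list belonged to them.

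The peaks come from Flag ChIP-seq of iMN-ESCs, a mouse embryonic stem cell line in which doxycycline (Dox) induces Flag-tagged Isl1-Lhx3, in which both LIM-homeodomain factors are joined as 1 protein. Of the 4 libraries, 2 came from cells given Dox at 2 µg/mL and 2 from cells without Dox. All 4 carried the transgene and came from embryoid bodies given retinoic acid at 0.5 µM, alone for 2 days and then for 4 more days with or without Dox, with LIF at 1000 units/mL for the final 16 hours. The fusion is a single artificial protein that stands in for a complex of separate factors, and the labels do not say whether the line is 1 clone. The authors' list is a single list with no value per library, so the members could not be compared between the groups, no spread between libraries can be given, and no value below has a replicate error. The list holds no expression values, so the labelled cell type could not be checked against markers. Each peak has a ChIP score and a background score, both on a scale that is not stated, and a count of tags for its region, and all of these are the authors' values.

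Eph receptors are receptor tyrosine kinases that are activated by ephrins on neighbouring cells. Ephrin-A proteins are held to the membrane by a lipid anchor and bind mainly EphA receptors, whereas ephrin-B proteins span the membrane and bind mainly EphB receptors. In the limb, Eph and ephrin signals help to sort axons from the lateral and medial divisions of the lateral motor column into dorsal and ventral paths. LIM-homeodomain factors are known to set which Eph receptors these neurons carry. Netrins attract axons through Dcc and Neo1 and repel them through Unc5 receptors, and RGM proteins are repulsive ligands of neogenin, the product of Neo1.

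Peaks were assigned to Eph receptor genes, ephrin genes, an Unc5 receptor gene and both RGM genes, and to none of the netrins or of the Dcc and Neo1 receptors. The 9 genes make up 28.1% of the 32 (13.7 to 46.7, exact binomial 95% interval, which covers counting error only). Of the other 22193 protein-coding genes, 1814 had a peak, which is 8.17% (7.82 to 8.54). The count was 3 of 14 for Eph receptors, 3 of 8 for ephrins, 1 of 4 for Unc5 receptors, 2 of 2 for RGM genes and 0 of 4 for netrins with Dcc and Neo1, and 0 of 4 leaves an exact interval up to 60.2%. Epha7, Efna5 and Rgma had 2 peaks each, and the other 6 genes had 1. Since the members were chosen with earlier results of these data known, these shares were set side by side and not tested.

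**Figure D1:**
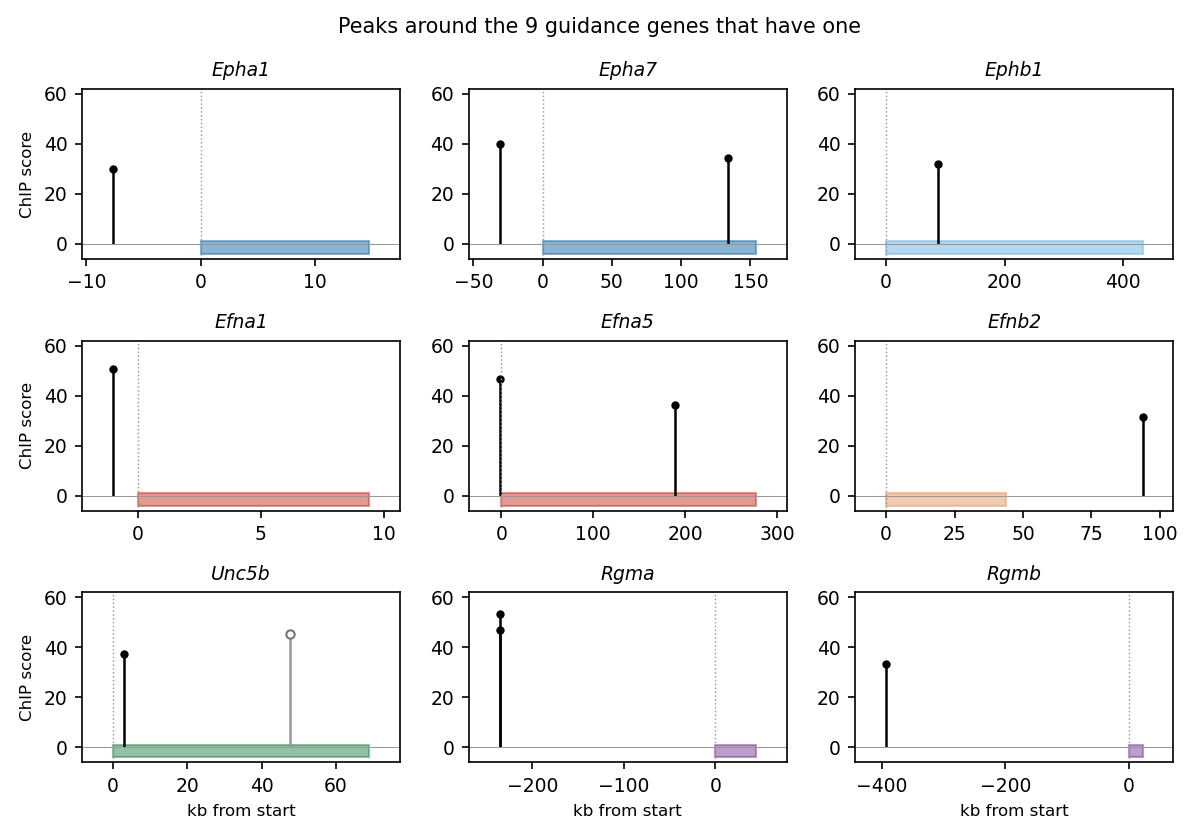
Peaks around the 9 guidance genes that have one. The horizontal axis is the distance from the outermost annotated start in kb, in the direction of transcription, and differs between panels; the coloured bar is the gene, each black line is an assigned peak and its height is the ChIP score. The open circle at Unc5b is a peak of score 45.5 inside that gene that was assigned to the neighbouring Slc29a3. The peaks of Efna1, Efna5 and Unc5b nearest to a start lie within 5 kb of it, whereas those of Rgma and Rgmb lie 236 and 393 kb upstream.

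The size of the stretch in which a gene is the nearest one differed between the guidance genes and other genes. This stretch, called its territory here, had a median of 195 kb for the 32 genes and 45.7 kb for the other protein-coding genes, and 25 of the 32 lay above the latter value. The share of other genes with a peak grew with territory, from 0.63% in the lowest decile of territory to 26.5% (24.7 to 28.4) in the highest, which starts at 265 kb. Of the guidance genes 13 fell in that highest decile, and 6 of these had a peak. In decile 9 there were 0 of 6, beside 16.1% of other genes. Deciles 3, 4 and 8 held 1 guidance gene with a peak each, and the remaining deciles held none. If each of the 32 genes is given the share of the other genes in its own decile, the sum is 5.15 genes (16.1%), beside the 9 observed. Within the highest decile the guidance genes still had larger territories, with a median of 1320 kb against 463 kb. Splitting that decile at 500 kb and 1 Mb, a choice made after the values were seen, gave a sum of 5.94 genes (18.6%). Over 1 Mb, 39.1% (33.7 to 44.7) of 317 other genes and 3 of 7 guidance genes had a peak. From 500 kb to 1 Mb it was 25.9% of other genes and 1 of 4 guidance genes. Up to 500 kb it was 23.6% of other genes and 2 of 2 guidance genes. What part of the difference in shares goes with territory was not tested beyond these values.

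**Figure D2:**
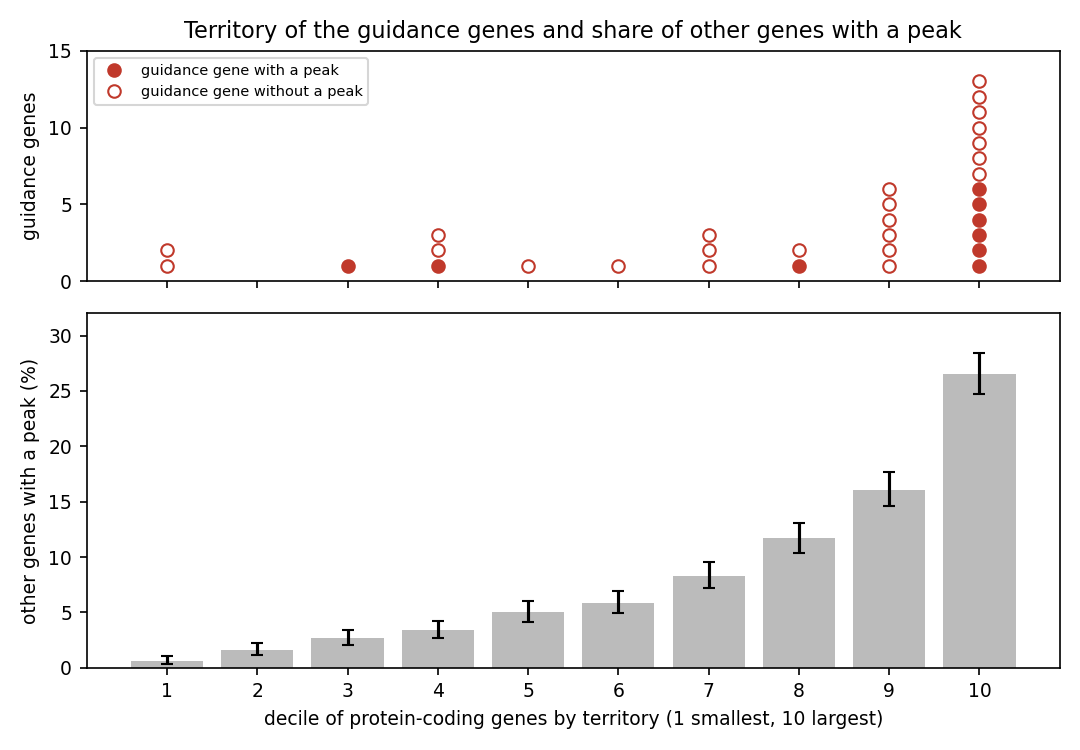
Territory of the guidance genes and share of other genes with a peak. Both panels share the horizontal axis, the decile of protein-coding genes by territory from the smallest to the largest; the upper panel shows each of the 32 guidance genes as 1 circle, filled where it has a peak, and the lower panel shows the percentage of other genes with a peak, with exact 95% intervals. The highest decile holds 13 guidance genes and has the highest share of other genes, 26.5%.

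Among the EphA receptors, 2 of 9 had a peak, Epha7 and Epha1. Epha7, a receptor known for repulsive mapping of axons, had 2. The stronger lay 31.1 kb upstream of its start, between genes (chr4:28708892-28709391, mm9), with a ChIP score of 39.88, with 0 as its background score, and 42 tags in its region (30.3 to 56.8, exact Poisson interval). The weaker lay in intron 9 of Epha7 (chr4:28874348-28874847), 134 kb from the outermost start and 75.5 kb from an internal one, with a score of 34.26 over a background score of 0.51, and 19 tags. No other protein-coding start lay near the locus, the next being that of Bhmt-ps1 at 2410 kb from the upstream peak. Epha1 had a single peak 7.68 kb upstream (chr6:42330699-42331198), between genes and 19.3 kb from the bitter taste receptor gene Tas2r143. Its score of 29.98 is the lowest value in the whole list, with a background score of 0.9 and 16 tags (9.15 to 26). The 200 bases around the stronger Epha7 maximum are shown as those of the highest-scoring EphA peak, and they hold a pair of TAAT cores in the same direction. Here and in the sequences that follow, the forward strand of mm9 is written and capitals mark every ATTA or TAAT, the core that homeodomain proteins bind, read on either strand.
Epha7 upstream peak, chr4:28709041-28709240: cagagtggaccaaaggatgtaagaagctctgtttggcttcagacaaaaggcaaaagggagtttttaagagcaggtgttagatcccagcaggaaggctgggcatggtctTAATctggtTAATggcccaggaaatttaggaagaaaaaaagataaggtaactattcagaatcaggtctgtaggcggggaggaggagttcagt

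The remaining EphA genes, Epha2, Epha3, Epha4, Epha5, Epha6, Epha8 and Epha10, had no assigned peak. Epha4, the receptor best known for guiding lateral motor column axons, has a territory of 1320 kb, and the peak nearest to its start was 457 kb upstream and assigned to Pax3 (score 101.71). For Epha3, Epha5 and Epha6 the nearest peak was 933, 2790 and 2830 kb away. Only Epha8 had a peak of another gene within 100 kb, at 51.5 kb. That peak (chr4:136460944-136461443, score 34.79) was 6.47 kb from the complement gene C1qa and also lay 69.3 kb upstream of Ephb2.

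Among the EphB receptors 1 of 5 had a peak. Ephb1, which takes part in the sorting of axons at the optic chiasm, held it in intron 1 of its 433 kb gene, 87.3 kb from the start (chr9:102169519-102170018). The score was 32.12, the background score 0.07 and the tag count 26 (17 to 38.1). The predicted gene Gm17708 has a start nearer to this maximum, at 78.5 kb, so the peak leaves Ephb1 when all annotated genes are used. Ephb2, Ephb3, Ephb4 and Ephb6 had none. The sequence is shown because it is 1 of the 4 member peaks with the palindromic core TAATTA.
Ephb1 intron 1, chr9:102169668-102169867: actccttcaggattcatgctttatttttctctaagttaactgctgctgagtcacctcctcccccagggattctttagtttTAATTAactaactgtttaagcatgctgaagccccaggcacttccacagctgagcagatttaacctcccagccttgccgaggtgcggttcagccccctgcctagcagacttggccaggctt

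Ephrin-A genes held the peaks closest to a start. Efna1 had a peak 1.01 kb upstream of its start (chr3:89085826-89086325), between genes, with a score of 50.59 over a background score of 0.01, and 35 tags (24.4 to 48.7). Efna1 is part of a cluster with Efna3 and Efna4 on chromosome 3, and the same peak lay 39.5 kb from the start of Efna3 and 55.9 kb from that of Efna4, neither of which had a peak of its own. Efna5, an ephrin-A with a 277 kb gene, had 2 peaks. The stronger was 1.97 kb upstream of the start (chr17:63232385-63232884) with a score of 46.57 over a background score of 0, and 28 tags (18.6 to 40.5). The weaker lay in intron 1 (chr17:63041190-63041689), 189 kb from the outermost start, with a score of 36.4 over a background score of 0.02, and 25 tags. A second short gene record at the 3' end of Efna5 has its start 85.4 kb from that maximum. So of the 2 Efna5 peaks the one at the start had the higher score. Efna2, whose nearest peak was 383 kb away, had none. The windows shown are that of the highest-scoring ephrin-A peak, at Efna1, and that of the Efna5 peak with TAATTA. The Efna1 window holds no ATTA core on either strand, while that in Efna5 intron 1 holds 9, the most among the guidance genes.
Efna1 upstream peak, chr3:89085975-89086174: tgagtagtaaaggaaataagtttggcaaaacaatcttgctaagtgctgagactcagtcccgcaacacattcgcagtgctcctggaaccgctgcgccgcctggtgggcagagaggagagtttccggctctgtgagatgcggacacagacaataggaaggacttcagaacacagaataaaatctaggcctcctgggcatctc
Efna5 intron 1, chr17:63041339-63041538: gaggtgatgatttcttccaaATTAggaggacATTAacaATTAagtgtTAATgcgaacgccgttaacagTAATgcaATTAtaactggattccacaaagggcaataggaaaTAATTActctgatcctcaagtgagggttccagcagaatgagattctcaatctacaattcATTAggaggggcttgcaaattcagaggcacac

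Of the ephrin-B genes only Efnb2, the transmembrane ligand that also marks arterial endothelium, had a peak. It lay past the 3' end of the gene, 93.7 kb from the outermost start and 71.8 kb from an internal start (chr8:8567301-8567800), while the next nearest protein-coding gene, 4921522P10Rik, started 94.3 kb away. The score was 31.31 with 14 tags (7.65 to 23.5), the fewest among the guidance genes. Its background score of 3.12 was 9.96% of the ChIP score, the highest ratio among the 12 peaks. Efnb1 and Efnb3 had no peak, the nearest being 835 and 147 kb from their starts. The Efnb2 window has its TAATTA core within a run of overlapping cores 5 bases from the maximum.
Efnb2 downstream peak, chr8:8567450-8567649: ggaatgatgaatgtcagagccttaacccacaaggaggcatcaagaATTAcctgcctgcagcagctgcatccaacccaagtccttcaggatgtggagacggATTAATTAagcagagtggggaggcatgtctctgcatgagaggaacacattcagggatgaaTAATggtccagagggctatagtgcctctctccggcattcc

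Within the netrin system the only assigned peak was at Unc5b, a repulsive netrin receptor with a known role in vessels. It lay 3.1 kb inside the gene, in intron 1 (chr10:60290982-60291481), with a score of 37.2 over a background score of 0.06, and 23 tags (14.6 to 34.5). A further peak in intron 1 of Unc5b (chr10:60246348-60246847, score 45.5, background score 4.24, 29 tags) lay 47.7 kb from its start but 31.1 kb from that of the nucleoside transporter gene Slc29a3, to which it was assigned. Ntn1, the main attractant made by the floor plate, had its nearest peak at 379 kb, Dcc at 814 kb, Neo1 at 279 kb and Ntn4 at 557 kb. Unc5a, Unc5c and Unc5d had theirs at 166, 861 and 1430 kb. The Unc5b sequence is shown as the only window of this group.
Unc5b intron 1, chr10:60291131-60291330: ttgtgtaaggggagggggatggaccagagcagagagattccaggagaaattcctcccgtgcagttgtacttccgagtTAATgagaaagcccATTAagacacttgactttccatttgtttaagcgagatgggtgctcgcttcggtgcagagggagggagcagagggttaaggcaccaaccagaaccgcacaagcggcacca

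Both RGM genes had peaks, all of them far upstream, and 2 of 2 leaves an exact interval down to 15.8%. Their territories, 395 kb for Rgma and 600 kb for Rgmb, are in the highest decile, where 26.5% of other genes had a peak. Rgma had 2 maxima 217 bases apart in 1 region of 48 tags (35.4 to 63.6), which is 236 kb upstream of its start. The stronger (chr7:80284120-80284619) had a score of 53.26 and a background score of 1.77, the weaker (chr7:80283903-80284402) had 47.11 and 2.55, and the 500 bp windows of these 2 overlap, so they are not independent. The stronger is the highest-scoring of all guidance gene peaks and ranks 630 in the list. The next nearest protein-coding gene by start was Chd2, at 308 kb. Rgmb had 1 peak 393 kb upstream (chr17:16356629-16357128), with a score of 33.19 over a background score of 0, and 23 tags (14.6 to 34.5). It lay 463 kb from Chd1, and a U6 small nuclear RNA gene was slightly nearer, at 382 kb. At such distances the nearest start names the locus and does not show which gene, if any, the site serves. Of the 2 windows shown, the first is that of the highest-scoring RGM peak and the second holds TAATTA. The first also holds a pair of TAAT cores in the same direction with 5 bases between, as the upstream Epha7 peak does.
Rgma upstream peak, stronger maximum, chr7:80284269-80284468: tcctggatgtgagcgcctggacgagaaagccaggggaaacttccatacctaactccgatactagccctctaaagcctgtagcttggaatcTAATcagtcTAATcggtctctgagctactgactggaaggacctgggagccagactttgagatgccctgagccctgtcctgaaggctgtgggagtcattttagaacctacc
Rgmb upstream peak, chr17:16356778-16356977: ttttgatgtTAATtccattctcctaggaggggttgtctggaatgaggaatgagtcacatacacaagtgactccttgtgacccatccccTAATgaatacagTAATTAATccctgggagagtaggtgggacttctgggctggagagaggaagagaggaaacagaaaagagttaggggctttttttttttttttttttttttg

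The 12 peaks were of middling to low score. They ran from 29.98 to 53.26 with a median of 36.8 (95% interval 32.1 to 47.1, from the ranked values). Over all nuclear peaks the median was 40.95, which lies in that interval, and the quartiles were 34.26 and 54.07. Of the 12, 4 were above the median of the list and 0 were among its 613 highest-scoring peaks. The 4 were the 2 maxima at Rgma and the peaks at the starts of Efna1 and Efna5. Tag counts ran from 14 to 48 with a median of 25.5, beside 31 in the whole list. The background score was under 10% of the ChIP score at all 12, as at 94.6% of all peaks, and it was 0 at 3 of them. The sample behind the background score is not named, so it is not a reading of the cells without Dox.

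**Figure D3:**
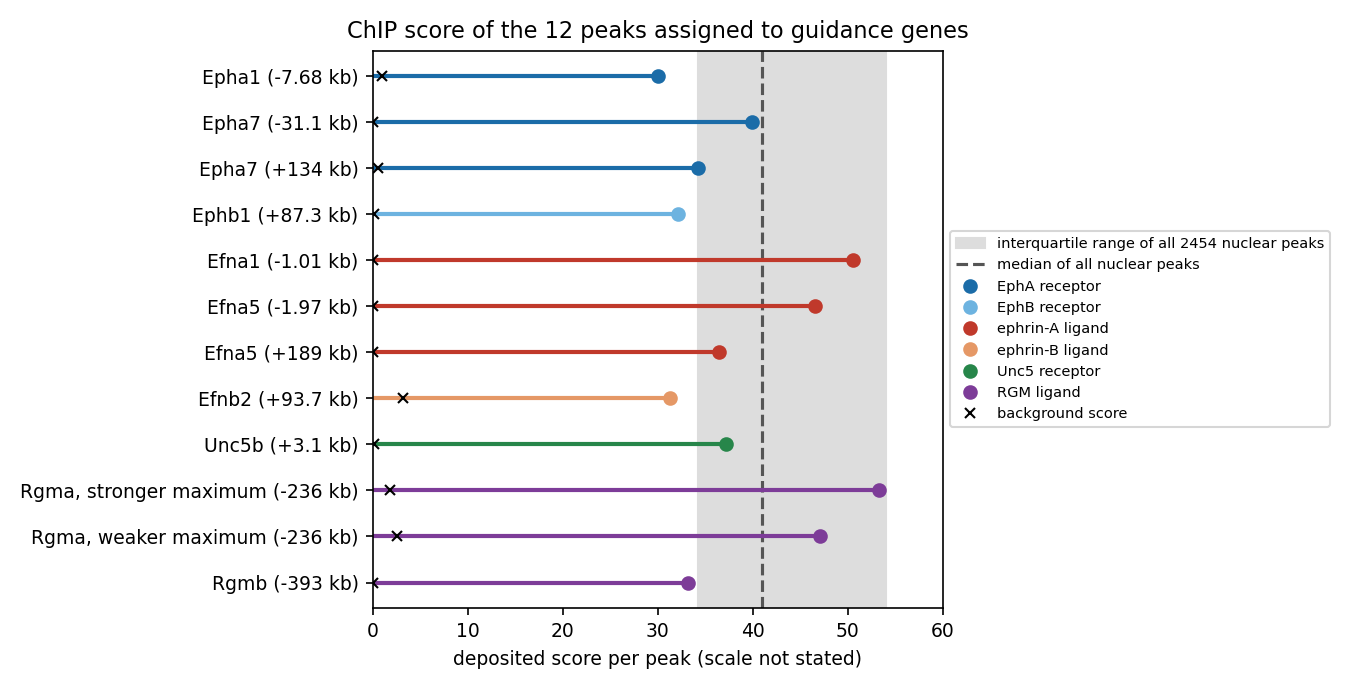
ChIP score of the 12 peaks assigned to guidance genes. Each row is a peak, named by its gene and the distance from the outermost start; circles give the ChIP score, crosses the background score, the grey band the interquartile range of all 2454 nuclear peaks (34.26 to 54.07) and the dashed line their median. The peaks of Efna1, Rgma and the start of Efna5 lie right of the line, and none lies right of the band.

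Limiting the list to stronger or nearer peaks changed the count. Among the 1227 peaks with the highest scores, 3 of 32 guidance genes kept one (9.38%, 1.98 to 25), Efna1, Efna5 and Rgma, beside 4.64% of other genes. Among the highest 613 there were 0 of 32, which leaves an exact interval up to 10.9%, beside 2.46% of other genes. Within 10 kb of a start there were 4 of 32 (12.5%, 3.51 to 29), Efna1, Efna5, Epha1 and Unc5b, beside 3.1%. Within 100 kb there were 7 of 32 (21.9%, 9.28 to 40), all but Rgma and Rgmb, beside 6.92%. With all annotated genes as candidates there were also 7, all but Ephb1 and Rgmb, beside 5.26%. By maxima inside the gene there were 4 of 32 (12.5%, 3.51 to 29), Efna5, Epha7, Ephb1 and Unc5b, beside 3.91%. The share was above that of other genes in these comparisons except among the highest 613 peaks. The intervals for the 1227 peaks, the 613 peaks and maxima inside the gene include the share of other genes. These settings draw on largely the same peaks, so they are not independent, and territory was not taken into account.

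Distances were long for many of the 12 peaks. The median distance to the nearest start was 73.7 kb (3.1 to 236, interval from the ranked values). Over all nuclear peaks it was 22.2 kb, which lies in that interval. There were 7 of 12 (58.3%) farther than 50 kb, beside 32.4% of all peaks, and 3 of 12 (25%) within 5 kb, beside 22%. The 7 include both Rgma maxima, which lie in the same region. The guidance genes also had larger territories than other genes, with a median of 195 kb against 45.7 kb. What part of the distances goes with territory was not tested. Introns held 4 of the 12 (33.3%, 9.92 to 65.1), beside 42.8% of all peaks, and the remaining 8 were intergenic. The 4 intronic maxima all lay within the guidance gene to which they were assigned.

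**Figure D4:**
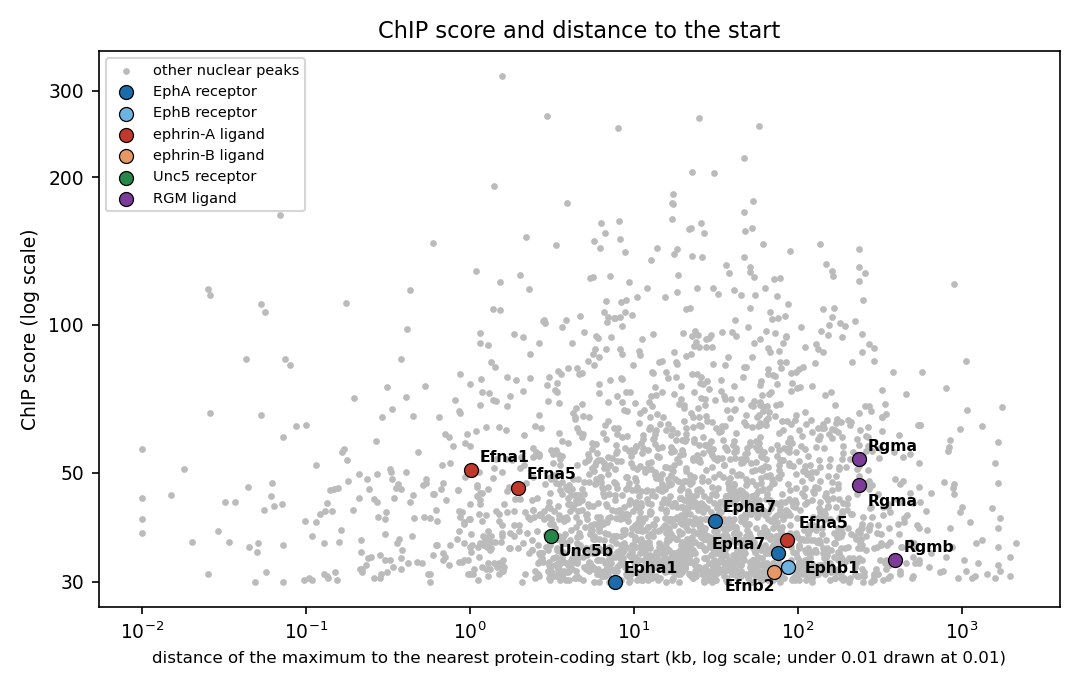
ChIP score and distance to the nearest protein-coding start for the 12 guidance gene peaks, coloured by role, and all other nuclear peaks in grey; both axes are logarithmic. The guidance gene peaks lie in the lower part of the score range, from 29.98 to 53.26, at distances from 1.01 to 393 kb.

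The DNA around the maxima was then read for homeodomain sequence in 200 bp centred on each maximum. The palindromic core TAATTA, a site of LIM-homeodomain factors, was present in 4 of 12 (33.3%, 9.92 to 65.1), at Efna5 intron 1, Efnb2, Ephb1 and Rgmb. It was in 34.3% (32.4 to 36.2) of the other 2442 peaks and in 6.5% of flanking windows of the same length 1 kb to each side. The 4-base core ATTA was present in 10 of 12 peaks (83.3%, 51.6 to 97.9), in 94.2% of the other peaks and in 66.7% of flanks. The 2 without it were those of Efna1 and Epha1. In these 10 the centre of the nearest core lay 1 to 16 bp from the maximum. The median was 8 bp, beside 15 bp over all peaks with a core and 31 bp over flanks with one. The share of all peaks in that range was not counted. The 4 peaks with TAATTA had scores from 31.31 to 36.4, and the 8 without it from 29.98 to 53.26, so none of the 4 highest-scoring peaks had it.

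**Figure D5:**
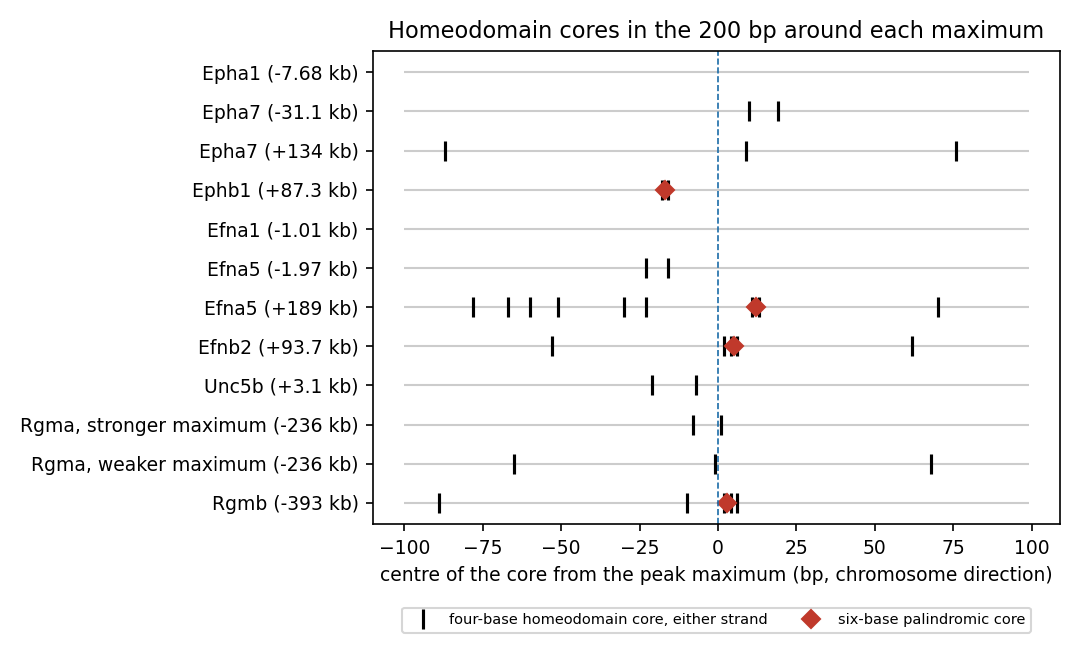
Homeodomain cores in the 200 bp around each of the 12 maxima. The horizontal axis is the position of the core's centre from the maximum in bp along the chromosome; black ticks are the four-base core on either strand and red diamonds the six-base palindromic core. The 4 diamonds lie 3 to 17 bp from the maximum, and the rows of Epha1 and the Efna1 start are empty.

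Other motifs were sparse. A repeat of TAAT in 1 direction with 5 bases between was present in 2 of 12 (16.7%, 2.09 to 48.4), the upstream Epha7 peak and the stronger Rgma maximum printed above, beside 5.98% of other peaks and 1.24% of flanks. ATTA followed by TAAT with 2, 3 or 10 bases between was in 0 of 12, which leaves up to 26.5% for each, beside 3.56%, 4.95% and 2.95% of other peaks. The E-box CAGCTG, a site type of neuronal bHLH factors, was in 2 of 12, at Efnb2 and Ephb1, beside 13.9% of other peaks. CATCTG was in 1, the weaker Rgma maximum, beside 14.7%, and that window also had the POU octamer ATGCAAAT, found in 4.22% of other peaks. TTCNNNGAA, a relaxed STAT site, occurred in 1 of 12, the Epha1 peak, beside 5% of other peaks and 5.85% of flanks. GC content had a median of 49.5% in the 12 windows and 48% over all peaks. With 12 windows, each of these shares has a wide interval, and a match is a description of letters and not a shown site.

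The genes through which these signals act had peaks in some cases. Of 25 partners of Eph receptors and ephrins, 3 had a peak (12%, 2.55 to 31.2). They were Arhgef15 (score 50.85, 7.68 kb from the start), which encodes an exchange factor that acts downstream of Eph receptors, Chn2 (32.39, in intron 1), which encodes a Rac-inactivating chimaerin, and Grip1 (31.85, in intron 1), whose product is a scaffold that binds ephrin-B. Of 16 signalling genes shared by growth-cone pathways, 4 had a peak (25%, 7.27 to 52.4). These were Trio (64.77, in intron 1), an exchange factor downstream of Dcc, and the kinase genes Fyn (48.44), Pak1 (43.89) and Src (33.72), the last 0.25 kb from its start. Of 20 relatives and partners of netrins and RGMs, 7 had a peak (35%, 15.4 to 59.2), led by Dscaml1 (96.35, in intron 3, rank 132), a relative of the netrin receptor gene Dscam, and by Pitpna (72.8), Siah1a (46.84) and Dapk1 (43.36), whose products have been tied to Dcc or Unc5 signalling. The share over other protein-coding genes was 8.17%, and territory was not taken into account for these lists.

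Guidance lists of the same kind are given for scale. Class 3 semaphorins with neuropilins had a peak in 4 of 9 genes (44.4%, 13.7 to 78.8). Their scores ran from 51.92 to 70.66 with a median of 63.7, led by Nrp2. Slit ligands and Robo receptors had a peak in 3 of 7 genes (42.9%, 9.9 to 81.6). Their 8 peaks had scores from 31.31 to 74.67 and a median of 38.68, led by Slit3. The share was 28.1% (13.7 to 46.7) for the 32 genes here and 8.17% for other protein-coding genes. So a share above that of other genes was not particular to the 32 genes. Territory was not taken into account for these lists. The scores of the 12 peaks here ran from 29.98 to 53.26, with a median of 36.8. Only the stronger Rgma maximum, at 53.26, reached the range of the semaphorin list, and the rest scored 50.59 or lower. All but the Epha1 peak lay within the range of the Slit and Robo list. The differences between the lists were not tested.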

How the data were processed

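Flag ChIP-seq peaks from 4 libraries were analysed from 1 list deposited by the authors. BWA 0.5.8a and the build mm9 are named in the submitters' processing notes; peak caller, threshold and any pooling of libraries remain not given in the sources used here. Per the file headers, the deposited ChIP score and background score are 1 score each per peak, with no stated scale, and the tags are a whole-number count per region that peaks of 1 region share. The total depth per library is unknown. Of 2455 peaks, 1 mitochondrial peak was left out.

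Maxima were assigned to the nearest start among all transcripts of protein-coding genes of GENCODE M1, which is on NCBIM37, the same assembly as mm9; gene records with 1 symbol were merged. All windows lay within the chromosomes. Motifs were searched on both strands in 200 bp, with flanks 1 kb to each side. Intervals are 95% exact binomial or exact Poisson, and those of medians come from the ranked values. Coordinates are 1-based. Python 3.11.15, pandas 2.3.3, scipy 1.17.1 and matplotlib 3.10.9 were used, and the look-up was tested on simulated positions with known answers. Of 5 lists of other genes all symbols matched, Draxin through the older symbol 2610109H07Rik in a RefSeq table (GRCm38.p6).

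The members and lists were chosen with earlier results of these data known. Every member is named, and up to 4 genes with the highest-scoring peak in each list of signalling partners and relatives; other genes are named only as neighbours or hosts of such peaks. Of the semaphorin and Slit lists only the leading gene is named. Sequences are those of the strongest peak of each role group and of every member peak with TAATTA. No comparison between groups was made, since no value per library is given.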

Additional observations from a re-analysis of the deposited data

How the results depend on the processing

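No paired analysis was possible because the list has no value per library. The 9 genes and the 8.17% of other genes stayed the same with 1 peak per region (11 member peaks). The same 9 genes and 12 peaks were also found with background scores under 10% of the ChIP score and with 1 start per gene record. Efna5, which has 2 records, kept a start for each there. The highest-scoring 50% of peaks left 3 genes and 4 peaks (median score 48.9, 0% with TAATTA, 0% in introns, 4.64% of other genes), and the highest 25% left 0 genes and 0 peaks (2.46%), so medians could not be given there. Peaks within 10 kb left 4 genes and 4 peaks (median distance 2.53 kb, 0% with TAATTA, 3.1%), those within 100 kb gave 6.92% of other genes, and all annotated genes gave 5.26%. Maxima in the gene body gave 4 genes and 5 peaks, 100% of them in introns by construction, and 3.91% of other genes. The TAATTA share was 33.3% in 100, 200 and 500 bp, and the shorter core ATTA gave 83.3%. These settings use fewer peaks or another assignment, and what part of the lower counts goes with that was not tested. Without depths or values per library, the precision of a score is unknown.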
